A study of Mus musculus with 6 samples.

Results

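The core p53 target genes are 10 genes that the transcription factor p53 is known to activate, namely Mdm2, Ccng1, Cdkn1a, Eda2r, Bax, Bbc3, Phlda3, Sesn1, Sesn2 and Trp53inp1. They were taken by gene symbol from the 55401 genes of the count tables, and each symbol had a single entry. RNA-seq libraries came from 3 samples of NIH3T3 cells given IPRN and 3 of NIH3T3 cells given the vehicle DMSO. NIH3T3 is a mouse embryonic fibroblast line, and the labels give it the genotype WT. The title of the study names angelicin, and the labels do not spell out what IPRN stands for. The study's design text states that hydrogen peroxide and TGF-β were used to turn the fibroblasts towards a cancer-associated state before IPRN was added, and that the question was which pathways IPRN affects. No dose or time is stated, nor whether DMSO cells were also stimulated with hydrogen peroxide and TGF-β, so the groups are called IPRN and DMSO here. Nothing in the labels says that replicates were separate cultures, so a p-value here reflects no more than how these 6 libraries vary, possibly for technical reasons.

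p53 is a transcription factor that DNA damage, oxidative stress and oncogene signals stabilise. Its targets include genes for proteins that shut it down again, for a cell cycle inhibitor, for death receptors and BCL-2 family killers, and for stress proteins that restrain growth signalling. In fibroblasts p53 is best known for cell cycle arrest and senescence. NIH3T3 cells are known to have lost the Cdkn2a locus, which encodes Arf, an inhibitor of Mdm2. Cdkn2a had 0, 0 and 8 counts in the IPRN libraries, against 0, 0 and 4 counts in the DMSO libraries, and was not tested.

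The libraries held 60320282 to 78629444 counts. A group's replicates differed by more than sampling noise, with a chi-square of 31.2 to 88.8 per degree of freedom, and the highest values, 81.8 and 88.8, belonged to the pairs that include IPRN replicate 1. All 10 fibroblast markers were detected in every library, with Col1a1 between 5881 and 7704 CPM. CPM are a gene's counts relative to its library's total over the genes left after filtering, scaled by the trimmed mean of M-values (TMM). Summed hepatocyte markers (15 genes) came to 117, 50.9 and 17.8 CPM in IPRN libraries 1 to 3, against 42.5, 95 and 72.7 CPM in DMSO libraries 1 to 3, and albumin (Alb) was at 0.186 CPM in IPRN 3 and at 0 in DMSO 1. Haptoglobin (Hp), an acute-phase gene that the same list holds, was its only member called, at 15.3, 16 and 15 CPM in IPRN, against 39.4, 40.9 and 41.2 CPM in DMSO. Summed leukocyte markers (10 genes) came to 21.5, 21.6 and 142 CPM in the IPRN libraries, against 13.3, 22.3 and 25.2 CPM in the DMSO libraries, with Cd3e at 0 throughout and 98 CPM of Lyz2 in IPRN 3. The part of these transcripts in the results below was not tested. The adjusted p without both IPRN 3 and DMSO 1 is given below beside each core target or related-list gene reported as called, and beside Phlda3. That fit drops the library with most Lyz2, but it keeps the libraries with most hepatocyte transcripts. Alb was at 42.8 CPM in IPRN 1, 13.7 in IPRN 2, 21.2 in DMSO 2 and 11.5 in DMSO 3. The fit therefore cannot show what part hepatocyte transcripts had.

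Mdm2 and Eda2r were lower in IPRN cells, Mdm2 by 1.32-fold and Eda2r by 1.46-fold, and no other of the 10 genes passed the test. The test was edgeR's quasi-likelihood F test (two-sided), with Benjamini-Hochberg adjustment across the 17159 genes left after low counts were filtered out, and a gene was called at an adjusted p under 0.05. All 10 genes passed that filter, the lowest with 755 counts in its smallest library. Among all genes tested 5.47% were called, 3.01% lower and 2.46% higher in IPRN, against 2 of 10 core targets lower and 0 higher. At an unadjusted p under 0.05, 3 of the 10 were lower and 1 was higher, where 22% of all genes tested fell under that limit. DESeq2 called the same pair lower and Phlda3 higher, with 15% of its 12702 tested genes called. In limma-voom 2 core targets were called lower and 0 higher, against 559 lower and 459 higher of all 17159 genes tested. The median log2 fold change of the 10 was -0.12, and that of all genes tested was 0.00. The estimates of 4 of the 10 were above 0 and those of 6 below. In bulk RNA, fewer cells expressing a gene and less of its RNA per cell cannot be told apart.

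**Figure D1:**
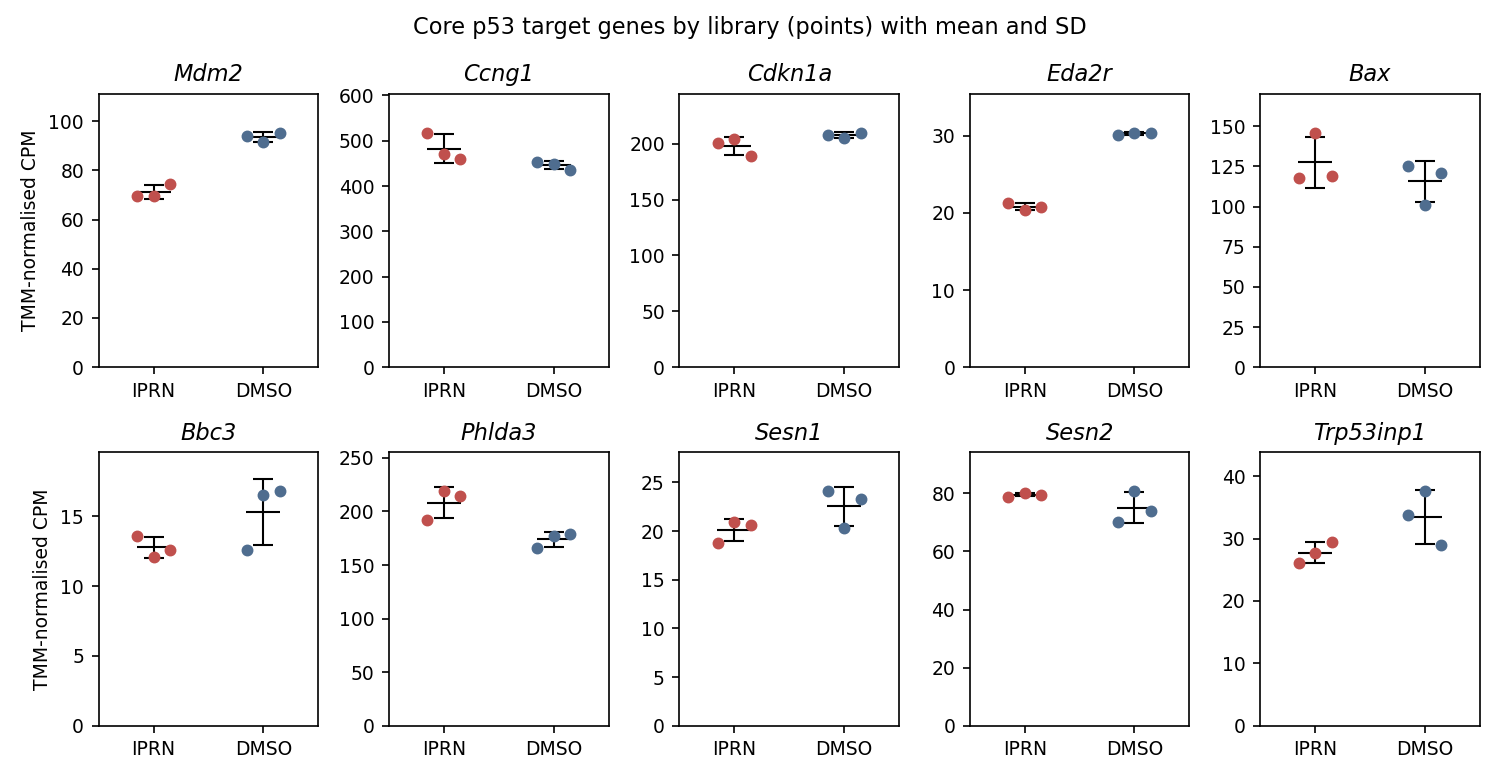
Level of each core p53 target in the 3 IPRN libraries (red, left) and the 3 DMSO libraries (blue, right), in TMM-normalised CPM on axes that start at 0, with the mean and SD as black bars. Mdm2 and Eda2r show a wide gap between the groups (Eda2r 20.4 to 21.3 CPM in IPRN, against 30.1 to 30.4 CPM in DMSO), while Cdkn1a and Sesn2 lie close together.

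Mdm2 encodes the ubiquitin ligase that marks p53 for degradation and so closes the main negative feedback loop of the pathway. The gene (ENSMUSG00000020184) lies on the minus strand of chromosome 10, from 117688875 to 117710758 (GRCm38). Its level was 69.6, 69.5 and 74.5 CPM in IPRN libraries 1 to 3, against 94.1, 91.5 and 95.4 CPM in DMSO libraries 1 to 3 (normalised by the trimmed mean of M-values, TMM). The highest IPRN library was below the lowest DMSO library, and the IPRN libraries 1 and 2 were nearly equal. The means were 71.2 ± 2.82 CPM in IPRN and 93.7 ± 2 CPM in DMSO (SD, n = 3 each). The log2 fold change was -0.40 ± 0.0518 (SE), with a 95% interval of -0.52 to -0.27 and an adjusted p of 0.0125 in edgeR. The edgeR adjusted p was 0.0713 without DMSO 1, 0.0639 without DMSO 2, 0.0648 without DMSO 3 and 0.053 without IPRN 2, so leaving out any of these 4 libraries ended the call, while the log2 fold change stayed between -0.43 and -0.37. The call was kept without IPRN 1 (0.0172) and without IPRN 3 (0.0297), and it was lost without both IPRN 3 and DMSO 1 (0.153).

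Eda2r encodes a receptor of the TNF receptor family that binds the ectodysplasin isoform EDA-A2. The gene (ENSMUSG00000034457) lies on the minus strand of chromosome X, from 97333840 to 97377216. It had 21.3, 20.4 and 20.7 CPM in the IPRN libraries, against 30.1, 30.4 and 30.4 CPM in the DMSO libraries. The groups were far apart and each was tight, with a coefficient of variation of 2.15% in IPRN and 0.567% in DMSO. The means were 20.8 ± 0.446 CPM in IPRN and 30.3 ± 0.172 CPM in DMSO (SD, n = 3 each), on 1334 to 2387 counts per library. The log2 fold change was -0.54 ± 0.0669 (SE), with a 95% interval of -0.70 to -0.39 and an edgeR adjusted p of 0.0099. As for Mdm2, the call was lost without DMSO 1 (0.0576), DMSO 2 (0.0602), DMSO 3 (0.0551) or IPRN 2 (0.0505), with a log2 fold change of -0.56 to -0.53 in the fits that leave out 1 library. It was kept without IPRN 1 (0.0128) and without IPRN 3 (0.0431), and the adjusted p without both IPRN 3 and DMSO 1 was 0.172.

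**Figure D2:**
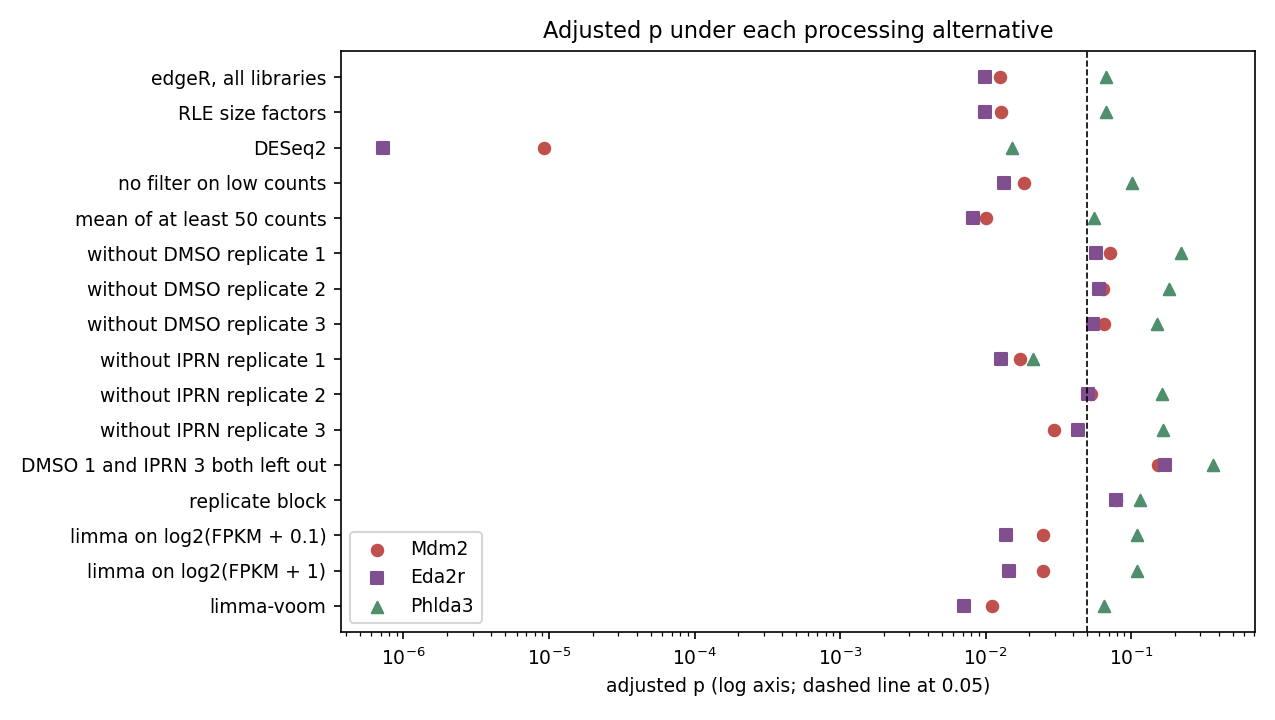
Adjusted p (log axis) of Mdm2, Eda2r and Phlda3, a gene described further on, in the edgeR fit of all libraries (top) and under each of 15 other ways of processing, with a dashed line at 0.05. Mdm2 and Eda2r cross the line without DMSO 1, DMSO 2, DMSO 3 or IPRN 2, without both IPRN 3 and DMSO 1, and with the replicate number as a block (0.0788 and 0.0791), and Phlda3 falls under it in DESeq2 (0.0153) and without IPRN 1 (0.0211).

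The start-site windows of the pair that fell, and of Cdkn1a as the member whose window holds the longest p53 match, are shown here. RefSeq windows (GRCm38.p6, 250 bases before to 50 bases after an annotated start) were found for 9 of the 10 genes, all but Trp53inp1, and made 13 windows in all. Capitals mark exact matches to the 10-base p53 consensus decamer, which was searched on both strands, and pairs of adjoining decamers with up to 2 mismatches outside the core. Sequences run 5′ to 3′ on the strand of the gene.
Mdm2 (chr10:117710709-117711008, minus strand): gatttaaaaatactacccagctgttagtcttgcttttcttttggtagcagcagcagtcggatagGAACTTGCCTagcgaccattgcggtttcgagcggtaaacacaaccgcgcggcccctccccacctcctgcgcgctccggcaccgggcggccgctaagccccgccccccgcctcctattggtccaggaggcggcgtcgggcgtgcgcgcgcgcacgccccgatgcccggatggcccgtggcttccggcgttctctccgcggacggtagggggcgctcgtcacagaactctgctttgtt
Eda2r (chrX:97377160-97377459, minus strand): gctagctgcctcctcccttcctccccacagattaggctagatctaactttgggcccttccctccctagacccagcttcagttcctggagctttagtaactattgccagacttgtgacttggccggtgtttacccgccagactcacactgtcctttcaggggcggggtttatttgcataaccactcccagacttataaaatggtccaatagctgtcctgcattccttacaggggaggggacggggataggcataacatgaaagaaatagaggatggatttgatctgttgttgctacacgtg
Cdkn1a upstream start (chr17:29090729-29091028, plus strand): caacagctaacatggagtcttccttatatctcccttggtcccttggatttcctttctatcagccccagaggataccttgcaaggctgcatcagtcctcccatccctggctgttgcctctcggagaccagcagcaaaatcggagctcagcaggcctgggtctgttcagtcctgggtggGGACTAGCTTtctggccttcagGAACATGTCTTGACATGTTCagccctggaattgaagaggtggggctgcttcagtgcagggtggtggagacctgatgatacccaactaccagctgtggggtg
The Mdm2 window held the decamer GAACTTGCCT, 186 bases upstream of the start, and the Eda2r window held no exact match. The Cdkn1a window held GGACTAGCTT 73 bases upstream and the adjoining pair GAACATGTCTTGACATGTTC, with 1 mismatch, 51 bases upstream. Of all 13 windows 5 held the decamer, from the genes Mdm2, Ccng1, Cdkn1a, Bax and Sesn1, and 1 held the pair. Over all 32851 RefSeq windows of the same length 8.36% held the decamer and 0.158% the pair. These matches describe letters in the window and are not measurements of binding. Sequence outside the windows was not searched, so p53 sites elsewhere in or near these genes would be missed.

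Ccng1, which encodes cyclin G1, a protein that brings the phosphatase PP2A to Mdm2, is the other feedback gene of the list (chromosome 11, 40748552 to 40755311, minus strand). It had 517.6, 470.7 and 459.0 CPM in the IPRN libraries, against 454.3, 449.1 and 435.6 CPM in the DMSO libraries. All IPRN libraries were above all DMSO libraries, but IPRN 3 and DMSO 1 differed by little and IPRN 1 lay well above the rest. The log2 fold change was 0.11 ± 0.0573 (SE), with a 95% interval of -0.02 to 0.25 and an edgeR adjusted p of 0.32, so a rise was not detected. Mdm2 and Ccng1 had estimates of opposite sign.

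Cdkn1a encodes p21, the inhibitor of cyclin-dependent kinases through which p53 arrests the cell cycle (chromosome 17, 29090976 to 29100727, plus strand). It had 201.3, 204.5 and 188.8 CPM in the IPRN libraries, against 207.6, 204.6 and 210.4 CPM in the DMSO libraries. The groups did not overlap, but IPRN 2 and DMSO 2 were almost equal and IPRN 3 stood furthest below. By the deposited FPKM, which are scaled differently, IPRN 2 (52.0 FPKM) lay just above DMSO 2 (51.8 FPKM). The log2 fold change was -0.07 ± 0.0474 (SE), with a 95% interval of -0.18 to 0.05 (a ratio of 0.88 to 1.03) and an edgeR adjusted p of 0.488. Exons of Cdkn1a overlap those of AC167363.2 on the other strand, and the library protocol does not mark strand, so reads of the overlap cannot be assigned to either gene with certainty.

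Bax and Bbc3 encode apoptotic members of the BCL-2 family, Bax the pore former of the mitochondrial outer membrane and Bbc3 (PUMA) a BH3-only protein that frees it. Bax (chromosome 7, 45461697 to 45466898, minus strand) had 118.4, 146.1 and 119.0 CPM in the IPRN libraries, against 125.4, 101.2 and 121.3 CPM in the DMSO libraries. The groups overlapped, with IPRN 2 high and DMSO 2 low, and the log2 fold change was 0.14 ± 0.113 (SE, edgeR adjusted p = 0.549). Bax shares exon positions on its own strand with Gm45808, so its count is uncertain to that extent. Bbc3 (chromosome 7, 16308393 to 16318205, plus strand) had 13.6, 12.1 and 12.6 CPM in the IPRN libraries, against 12.6, 16.5 and 16.8 CPM in the DMSO libraries. DMSO 1 lay inside the IPRN range, and the log2 fold change was -0.26 ± 0.131 (SE), with a 95% interval of -0.57 to 0.05 and an edgeR adjusted p of 0.31.

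Phlda3 encodes a pleckstrin homology domain protein that competes with AKT for membrane lipids. The gene (chromosome 1, 135766119 to 135769136, plus strand) had 191.9, 219.1 and 214.2 CPM in the IPRN libraries, against 165.9, 177.1 and 179.0 CPM in the DMSO libraries. All IPRN libraries were above all DMSO libraries, with IPRN 1 the lowest of its group. The log2 fold change was 0.26 ± 0.0641 (SE, a ratio of 1.20 with a 95% interval of 1.08 to 1.33), and the edgeR adjusted p of 0.067 missed the threshold. It was 0.0211 without IPRN 1 and 0.0153 in DESeq2, and 0.219 without DMSO 1 and 0.367 without both IPRN 3 and DMSO 1.

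The stress genes of the list are Sesn1 and Sesn2, which encode sestrins, inhibitors of mTORC1 signalling through GATOR2, and Trp53inp1, which encodes a nuclear stress protein that promotes p53 activity. Sesn1 (chromosome 10, 41809935 to 41908424, plus strand) had 18.8, 20.9 and 20.6 CPM in the IPRN libraries, against 24.1, 20.3 and 23.3 CPM in the DMSO libraries. The groups overlapped, since DMSO 2 was below IPRN 2 and IPRN 3, and the log2 fold change was -0.16 ± 0.0957 (SE, edgeR adjusted p = 0.387). Sesn2 (chromosome 4, 132492032 to 132510501, minus strand) had 78.9, 80.0 and 79.6 CPM in the IPRN libraries, against 70.3, 80.8 and 74.0 CPM in the DMSO libraries. The IPRN libraries were nearly equal and DMSO 2 was above all of them, and the log2 fold change was 0.08 ± 0.0629 (SE, edgeR adjusted p = 0.514). Trp53inp1 (chromosome 4, 11156431 to 11174379, plus strand) had 26.1, 27.7 and 29.4 CPM in the IPRN libraries, against 33.8, 37.6 and 28.9 CPM in the DMSO libraries. IPRN 3 was above DMSO 3, so the groups overlapped, and the log2 fold change was -0.27 ± 0.11 (SE, 95% interval -0.53 to -0.01, edgeR unadjusted p = 0.044 and adjusted p = 0.211).

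**Figure D3:**
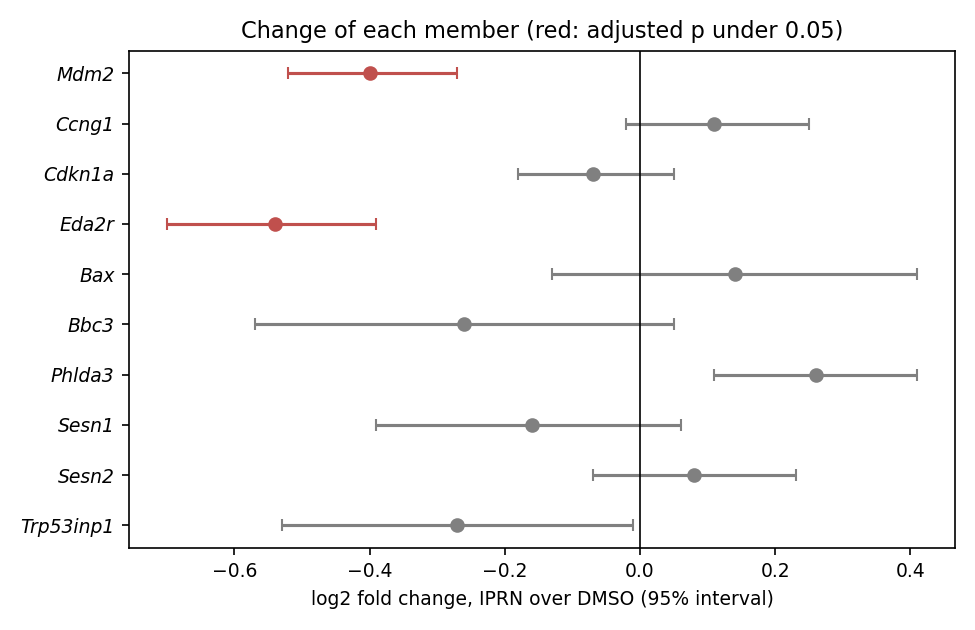
Log2 fold change of each core p53 target, IPRN over DMSO, with its 95% interval from edgeR, in red where the adjusted p is under 0.05. The intervals of Mdm2 (-0.52 to -0.27) and Eda2r (-0.70 to -0.39) lie below 0, that of Phlda3 (0.11 to 0.41) lies above 0 without passing the adjusted threshold, and that of Trp53inp1 ends just below 0 at -0.01.

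The groups did not overlap for 5 of the 10 genes, where 29.6% of all genes tested had groups that did not overlap. All IPRN libraries were below all DMSO libraries for Mdm2, Eda2r and Cdkn1a (14.7% of all genes tested) and above them for Ccng1 and Phlda3 (14.9% of all genes tested). Spread within a group ran from a coefficient of variation of 0.7% for Sesn2 to 12.4% for Bax in IPRN, and between 0.567% for Eda2r and 15.4% for Bbc3 in DMSO.

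Ratios of members within a library do not depend on library scaling. The count ratio of Mdm2 to Cdkn1a was 0.346, 0.34 and 0.394 in the IPRN libraries, against 0.453, 0.447 and 0.453 in the DMSO libraries, a log2 difference of -0.33. That of Mdm2 to Mdm4, the gene of the Mdm2 partner that also restrains p53, was 0.809, 0.78 and 0.884 in IPRN, against 1.06, 1.01 and 1.15 in DMSO, a log2 difference of -0.38. Neither ratio overlapped between the groups, and both had an exact two-sided permutation p of 0.1, the smallest that 3 libraries against 3 can give, and 0.2 after adjustment over the 4 ratios tested. The ratio of Bbc3 to Bax was 0.115, 0.0832 and 0.106 in IPRN, against 0.1, 0.163 and 0.138 in DMSO. The ratio of Sesn2 to Sesn1 was 4.19, 3.83 and 3.86 in IPRN, against 2.92, 3.99 and 3.18 in DMSO. Both of these overlapped between the groups, with an exact permutation p of 0.3 each (0.3 after adjustment).

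Levels of different genes were set side by side only per length, as the deposited FPKM (fragments scaled by gene length and by library size). Ccng1 was highest, at 124 ± 5.91 FPKM in IPRN and 114 ± 2.65 FPKM in DMSO, and Phlda3 followed at 120 ± 10.1 FPKM in IPRN and 100 ± 4.06 FPKM in DMSO (SD, n = 3 each). Bax, Cdkn1a, Sesn2 and Mdm2 came next, Mdm2 at 12.6 ± 0.663 FPKM in IPRN and 16.5 ± 0.312 FPKM in DMSO. Bbc3, Sesn1, Trp53inp1 and Eda2r were lowest, with means over all 6 libraries of 5.92 to 3.89 FPKM. The order was the same in both groups by mean, and neighbours overlapped only for Ccng1 and Phlda3 in IPRN, and for Bbc3 with Sesn1, Sesn1 with Trp53inp1 and Trp53inp1 with Eda2r in DMSO. Eda2r was thus apart from Trp53inp1 in IPRN (3.17 ± 0.0416 against 3.85 ± 0.291 FPKM) and level with it in DMSO (4.61 ± 0.0284 against 4.63 ± 0.613 FPKM).

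**Figure D4:**
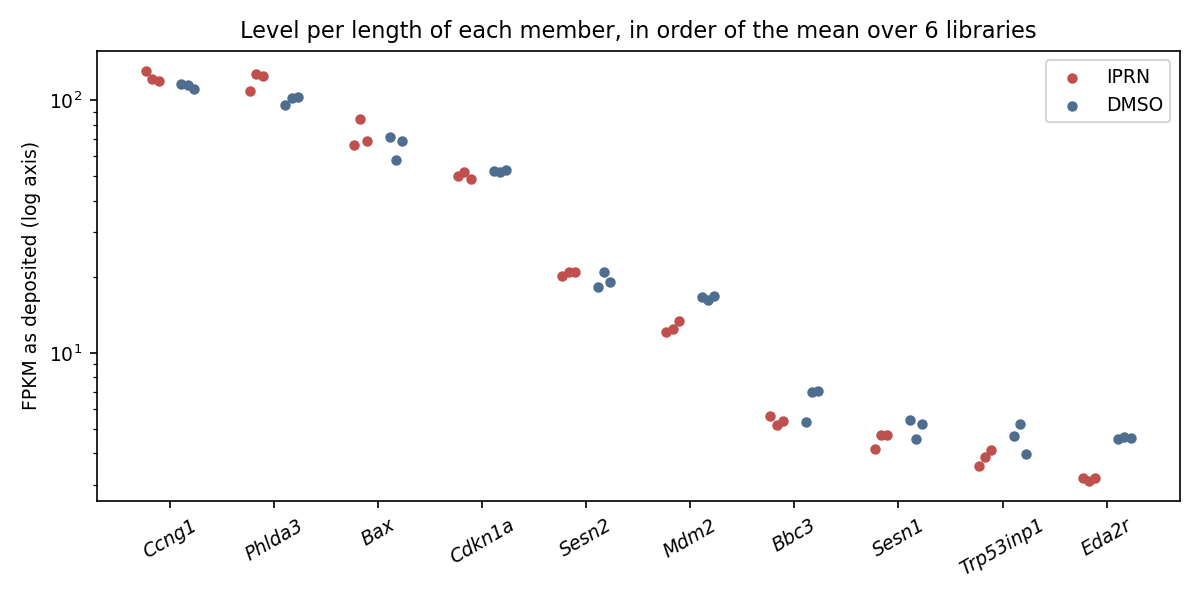
Deposited FPKM of the 10 genes, in order of their mean over the 6 libraries, for IPRN (red) and DMSO (blue). Ccng1 is highest, with a mean of 119 FPKM, and Eda2r lowest, with a mean of 3.89 FPKM.

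Trp53 itself, whose mRNA encodes p53, was at 186 ± 14 CPM in IPRN and 179 ± 4.57 CPM in DMSO (SD, n = 3 each), with a log2 fold change of 0.06 (95% interval -0.09 to 0.21, edgeR adjusted p = 0.666). Mdm4 was at 86.5 ± 2.46 CPM in IPRN and 87.4 ± 3.84 CPM in DMSO, with a log2 fold change of -0.01 (edgeR adjusted p = 0.922). Protein levels and p53 activity were not measured. Of the p53 pathway regulators (p53, its relatives, and proteins that stabilise, modify or inhibit it) 16 were tested, of 19 genes found in the tables from 20 listed symbols, and edgeR called 0 higher and 0 lower, with 2 higher and 2 lower at an unadjusted p under 0.05. DESeq2 called 2 of them higher and 1 lower, and limma-voom called 0. Their median log2 fold change was -0.04. For comparison with this list and those below, edgeR called 5.47% of all genes tested, and DESeq2 called 15% of its 12702. At an unadjusted p under 0.05 in edgeR, 22% of all genes tested passed.

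Of 33 other p53 target genes tested, 0 rose and 3 fell, with a median log2 fold change of 0.10; 6 were higher and 5 lower at an unadjusted p under 0.05, DESeq2 called 4 higher and 4 lower, and limma-voom 0 higher and 3 lower. Btg2, an antiproliferative cofactor of mRNA deadenylation, was at 22.2 ± 1.83 CPM in IPRN and 91.3 ± 4.98 CPM in DMSO (SD, n = 3 each), a log2 fold change of -2.04 (edgeR adjusted p = 7.13e-05). Plk2, a polo-like kinase, was at 244 ± 10.9 CPM in IPRN and 392 ± 11.6 CPM in DMSO, a log2 fold change of -0.68 (edgeR adjusted p = 0.00135). Plk3, another polo-like kinase, was at 29.7 ± 2 CPM in IPRN and 45 ± 2.63 CPM in DMSO, a log2 fold change of -0.60 (edgeR adjusted p = 0.013), and some of its exons overlap Tctex1d4. Btg2 and Plk2 were called in all 6 fits that leave out 1 library, and Plk3 only in the fit without IPRN 1, with adjusted p-values of 0.0502 (without IPRN 3) to 0.0689 (without DMSO 2) in the other fits. Without both IPRN 3 and DMSO 1 the adjusted p was 0.0113 for Btg2, which was still called, and 0.0538 for Plk2 and 0.165 for Plk3, which were not. All 3 are also early response genes, known to be induced by growth factor and stress signals.

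Among genes downstream of p21, the 18 cell cycle genes repressed through the DREAM complex had 1 gene that rose and 2 that fell, with a median of 0.00. Of all genes tested, 5.47% were called. At an unadjusted p under 0.05 in edgeR, 2 of the 18 were higher and 3 lower, and DESeq2 and limma-voom each called 1 higher and 2 lower. Plk1, the mitotic polo-like kinase, rose by 0.38 on the log2 scale (106 ± 3.71 CPM in IPRN, 81.4 ± 2.55 CPM in DMSO, edgeR adjusted p = 0.0143). Top2a, DNA topoisomerase II alpha, fell by 0.22 (463 ± 8.77 CPM in IPRN, 539 ± 17.1 CPM in DMSO, edgeR adjusted p = 0.0407), and Ccnb1, the mitotic cyclin B1, fell by 0.40 (97.2 ± 8.29 CPM in IPRN, 129 ± 10.8 CPM in DMSO, edgeR adjusted p = 0.0468). The 9 tested genes on the list of p21 partners included Cdkn1b, which itself encodes an inhibitor of cyclin-dependent kinases. Of these 9, Cdk2, the kinase of the G1 to S transition, rose by 0.64 (51.7 ± 2.28 CPM in IPRN, 33.1 ± 3.31 CPM in DMSO, edgeR adjusted p = 0.0147), and 0 fell. In edgeR 2 of the 9 were higher and 1 lower at an unadjusted p under 0.05, and DESeq2 and limma-voom called 1 higher and 0 lower. Exons of Plk1, Top2a and Cdk2 overlap those of another annotated gene. Over the fits that leave out 1 library, the adjusted p ran from 0.0161 to 0.0773 for Plk1 (called without IPRN 1 and IPRN 2), from 0.0306 to 0.167 for Top2a (called without IPRN 1), from 0.0652 to 0.17 for Ccnb1 (called in none) and from 0.0279 to 0.0688 for Cdk2 (called without IPRN 1 and DMSO 3). Their log2 fold changes in those fits were 0.35 to 0.40 for Plk1, -0.24 to -0.19 for Top2a, -0.47 to -0.33 for Ccnb1 and 0.56 to 0.69 for Cdk2. Without both IPRN 3 and DMSO 1 none of these 4 genes was called (adjusted p of 0.2 for Plk1, 0.268 for Top2a, 0.255 for Ccnb1 and 0.152 for Cdk2).

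Of 12 BCL-2 family genes tested, 0 rose and 1 fell, with a median log2 fold change of 0.08, and at an unadjusted p under 0.05 edgeR had 2 higher and 1 lower, DESeq2 called 1 higher and 1 lower, and limma-voom 0 higher and 1 lower. Mcl1, an anti-apoptotic member, fell by 0.42 on the log2 scale (156 ± 15.7 CPM in IPRN, 210 ± 1.44 CPM in DMSO, edgeR adjusted p = 0.0291); over the fits that leave out 1 library its adjusted p ran from 0.00701 to 0.123, and it was called without IPRN 1 only, with 0.205 without both IPRN 3 and DMSO 1. Of 13 sestrin and GATOR partners of the mTORC1 pathway tested, edgeR called 0, with 3 higher and 3 lower at an unadjusted p under 0.05, and DESeq2 called 1 higher and limma-voom 0. ATF4, a stress factor, also induces Sesn2. Of 12 genes tested on the list of ATF4 stress targets, which holds Atf4 itself, 0 rose and 2 fell, with a median of -0.17. These were Atf3, a stress transcription factor (3.16 ± 0.165 CPM in IPRN, 12.7 ± 0.45 CPM in DMSO, log2 fold change -2.01, edgeR adjusted p = 0.000194), and Ddit4, an mTORC1 inhibitor (129 ± 11.3 CPM in IPRN, 164 ± 5.75 CPM in DMSO, log2 fold change -0.35, edgeR adjusted p = 0.0427). Atf3 was called in all 6 fits that leave out 1 library and Ddit4 only without IPRN 1, with an adjusted p of up to 0.149. Without both IPRN 3 and DMSO 1 the adjusted p was 0.0183 for Atf3 and 0.232 for Ddit4. At an unadjusted p under 0.05 in edgeR, 2 genes of this list were higher and 6 lower. Of all 17159 genes tested, 1922 were higher and 1847 lower at that limit. Atf4 itself was among the lower ones (log2 fold change -0.37, edgeR adjusted p = 0.143). DESeq2 called 1 gene of the list higher and 4 lower, and limma-voom called 1 higher and 2 lower.

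On the list of paralogs and ligands of the members, 4 genes were tested, namely Ccng2, Phlda1, Trp53inp2 and Traf6. Traf6 is neither a paralog nor a ligand of a member, and the ligand gene Eda was not tested. Of the 4 genes, 1 rose and 1 fell. At an unadjusted p under 0.05 in edgeR, and in DESeq2 and limma-voom, 1 was higher and 1 lower. Phlda1, a paralog of Phlda3, was at 72.9 ± 7.38 CPM in IPRN and 170 ± 1.53 CPM in DMSO, a log2 fold change of -1.22 (edgeR adjusted p = 0.000609, at most 0.00909 without any 1 library and 0.0357 without both IPRN 3 and DMSO 1), while Phlda3 had an estimate of the opposite sign; Gm28592 overlaps some of its exons. Trp53inp2, a paralog of Trp53inp1 with a role in autophagy, was at 63.5 ± 1.73 CPM in IPRN and 49.9 ± 2.62 CPM in DMSO, a log2 fold change of 0.35 (edgeR adjusted p = 0.0283), and it was called without IPRN 1 but not without any of the other libraries (up to 0.121), nor without both IPRN 3 and DMSO 1 (0.228).

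**Figure D5:**
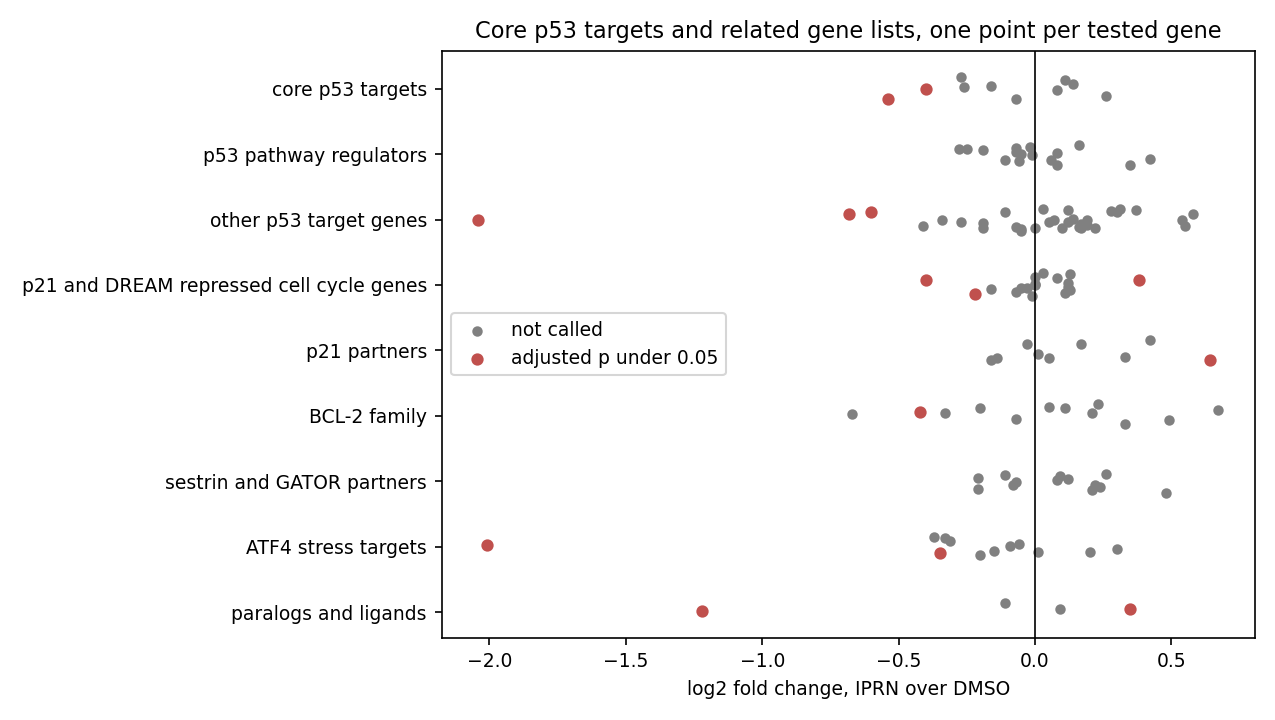
Log2 fold change, IPRN over DMSO, of every tested gene of the core p53 targets and the related lists, with genes of adjusted p under 0.05 in edgeR in red. The core targets span -0.54 to 0.26, and the largest decreases in the other lists belong to Btg2 (-2.04), Atf3 (-2.01) and Phlda1 (-1.22).

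The genes whose level across the 6 libraries was most like that of each called member were sought by Pearson's r of log2 CPM. The search covered the 9851 tested genes with a standard symbol that averaged 5 CPM or more. Names of predicted genes and clones, and symbols with a capital after the first letter, were left out. For Mdm2 they included Ifitm3 (r = 0.9991) and Mmp19 (r = 0.9978), and for Eda2r they were Egr1 (r = 0.9989), Cp (r = 0.9984) and Nfkbiz (r = 0.9984). With 2 groups of 3 libraries, any gene with a clear and even difference between the groups scores high. Of the genes searched, 707 had an r above 0.9 with Mdm2 and 794 with Eda2r. Fold changes differed widely among them, with a log2 fold change of -0.45 for Ifitm3 and -2.20 for Egr1.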

How the data were processed

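Gene expression was measured by RNA-seq of 6 NIH3T3 libraries, 3 given IPRN and 3 given DMSO, grouped by the treatment label. Per the labels' protocols, mRNA was selected with oligo(dT) beads, fragmented and primed with random hexamers, with no step that marks strand. Reads were trimmed with cutadapt 1.9, per the submitters' processing notes; the sources used here name no aligner, counter, build or annotation. Among the gene IDs, 55141 are in GENCODE M21 and 51957 (94.2%) have the same position there, so coordinates are GRCm38. The authors deposited raw counts per gene and FPKM per gene, per the file headers. The lowest FPKM listed was 1e-06, and Cdkn2a was listed at 0.0001 FPKM in IPRN 1, where its count was 0. Counts were fitted with edgeR 4.0.16 in R 4.3.3 (TMM, filterByExpr with a minimum count of 10, quasi-likelihood F test, group as the only term), with a Benjamini-Hochberg adjustment over all genes tested, and the code was tested on simulated data. Alternatives were DESeq2 1.42.0, limma 3.58.1 (voom, and log2(FPKM + 0.1) or log2(FPKM + 1) with a mean FPKM of at least 0.1), other size factors and filters, leaving out libraries, and a replicate block. Ratios of members used exact permutation tests. With unfiltered library totals of 60320282 to 78629444, a floor of 3 counts is 0.03815 to 0.04973 CPM before TMM scaling.

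The 10 genes, the related lists and the alternatives were chosen with earlier results of these data known. Values were given for all 10 genes, for Trp53, Mdm4 and Cdkn2a, for up to 3 called genes of each related list with the smallest adjusted p, and for the 3 genes most correlated with each called member, except 1 that is not reported here. Marker lists of epithelial, endothelial and erythroid cells summed to at most 3.3, 3.6 and 2.19 CPM in any library. Promoter windows came from RefSeq.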

Additional observations from a re-analysis of the deposited data

How the results depend on the processing

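All 150 estimates of the 10 core targets under 15 alternatives kept the direction of the edgeR fit of all libraries. The count of core targets called was 2 (both lower) with RLE size factors, with no filter on low counts, with a mean of at least 50 counts, in both limma fits on FPKM and in limma-voom; DESeq2 called Phlda3 as well, 1 higher. Leaving out 1 library gave 0 to 3 called, 0 to 2 of them lower and 0 to 1 higher. It was 0 called and 0 lower without both DMSO 1 and IPRN 3. Over all genes tested 938 were called, against 1911 in DESeq2, 621 with no filter and 941 with RLE size factors. The number was 1161 with a mean of at least 50 counts and 1018 in limma-voom. In limma it was 722 on log2(FPKM + 0.1) and 721 on log2(FPKM + 1). When 1 library was left out, 133 to 1047 genes were called (the highest without IPRN 1, the lowest without DMSO 1). Without both DMSO 1 and IPRN 3, 53 genes were called. Fits with libraries left out have fewer samples. With the replicate block, 103 genes and 0 core targets (0 lower) were called, with an adjusted p of 0.0788 for Mdm2 and 0.0791 for Eda2r. Deviations of same-numbered libraries from their group means correlated at -0.18, 0.09 and -0.13. The highest correlation of any IPRN library with any DMSO library was 0.24, for IPRN 3 with DMSO 1. With 3 libraries per group these values cannot show whether libraries shared a batch, and a shared batch was not tested. Some called genes of the related lists also lost the call with all 6 libraries kept. With no filter on low counts the edgeR adjusted p was 0.0702 for Top2a, 0.0634 for Ccnb1 and 0.0611 for Ddit4. Neither limma fit on FPKM called these genes, nor Mcl1 (adjusted p of 0.0566 and 0.0567). With the replicate block, only Btg2, Plk2, Atf3 and Phlda1 of the called related-list genes kept the call. The log2 difference of each within-library ratio kept its sign with FPKM and without any 1 library. The cause of the lost calls was not tested. The smallest count of a core target in any library was 755.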
